A study of Rattus norvegicus with 12 samples.

Results

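A set of 33 rat genes of the interferon response and of class I antigen processing was followed in knee articular cartilage of rats with surgically induced osteoarthritis (OA) and of sham-operated rats. The members were named as a list of interferon-stimulated genes, STAT and IRF factors, interferon receptors and class I antigen processing genes. For a gene with several probe sets the brightest over these arrays was taken. The members were chosen with earlier results of these data known, so the list is not a blind one. Of the 33 genes, 32 had a probe set that carries their symbol alone and Gbp5, a guanylate binding protein, had none. Of these 32, 23 exceeded a log2 value of 4 in at least 3 of the 12 arrays and were tested, out of 9244 genes that passed this filter among 14218 with a probe set.

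Total RNA from cartilage was hybridized to 1-colour Affymetrix arrays, and the values are GCRMA log2 values, on which a difference of 1 is a doubling. The 4 groups held 3 arrays each: rats 2 weeks after OA surgery, rats 2 weeks after sham surgery, rats 8 weeks after OA surgery and rats 8 weeks after sham surgery. All animals were operated on, and the series has no group without surgery. The labels point to a published rat surgical model for the operation, and give no strain, age, sex or drug. Arrays are numbered 1 to 3 within a group, with no word on whether each comes from an animal of its own, and every p-value here rests on the spread between arrays, which may be technical. Arrays of a group correlated with each other at a mean r of 0.987 to 0.996 over all probe sets. Replicate 1 of sham at 8 weeks stood apart from the other sham arrays in the members and in markers of macrophages and muscle, so the 8-week results are given with and without it. The cartilage markers Col2a1 and Acan, the main collagen and proteoglycan genes of this tissue, were bright in all 12 arrays, at 15.88 to 16.27 and 14.10 to 14.64. In whole-tissue RNA, fewer cells of a type and less RNA per cell cannot be told apart.

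Interferons are secreted proteins, and cells release those of type I on sensing viral nucleic acids or damaged DNA. Type I interferons bind a receptor that contains IFNAR1 and activate a complex that contains STAT2 and IRF9 and binds the interferon-stimulated response element (ISRE) in promoters. Interferon gamma binds a receptor that contains IFNGR1 and leads to binding of the gamma-activated site (GAS). The targets include antiviral effectors and the immunoproteasome and peptide transporter that load peptides onto class I molecules. In joints these genes are known from synovium and from infiltrating leukocytes as well as from chondrocytes.

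Promoter sequences are shown for members whose levels are described below, because most of the list shares a short element in its promoters. RefSeq windows of 300 bases in the rat build GRCr8, from 250 bases before to 50 after the start site, existed for 27 of the 33 members. The core letters of the ISRE, GAAANNGAAA on one strand or TTTCNNTTTC on the other, occurred in 17 of these 27 windows (63.0%). The same letters occurred in 1312 of all 33469 rat windows (3.92%). The core letters of the GAS, TTCNNNGAA, which read the same on both strands, occurred in 8 of 27 windows (29.6%) and in 2970 of all windows (8.87%). The capitals in the stretches below mark the ISRE letters, each with 15 bases on either side, written 5′ to 3′ on the strand of the gene.
Rsad2, chr6:48788243-48788282, minus strand: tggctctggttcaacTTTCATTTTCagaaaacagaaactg
Isg20, chr1:142239952-142239991, plus strand: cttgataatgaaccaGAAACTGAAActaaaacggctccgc
Irf7, chr1:205800068-205800107, minus strand: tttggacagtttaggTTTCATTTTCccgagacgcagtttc
Gbp2, chr2:234005681-234005720, plus strand: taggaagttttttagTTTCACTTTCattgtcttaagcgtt
Ifitm3, chr1:205541778-205541817, minus strand: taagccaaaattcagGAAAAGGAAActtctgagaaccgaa
Psmb8, chr20:4657011-4657050, minus strand: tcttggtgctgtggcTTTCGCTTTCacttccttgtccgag
Tap1, chr20:4668640-4668679, minus strand: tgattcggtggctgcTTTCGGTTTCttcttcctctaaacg
B2m, chr3:129549165-129549204, plus strand: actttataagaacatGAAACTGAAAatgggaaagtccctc

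Counted from the start site, the match began at position -147 in Rsad2, at -92 in Isg20, at -69 in Irf7, at -31 in Gbp2, at -44 in Ifitm3, at -4 in Psmb8, at -121 in Tap1 and at -150 in B2m. The windows of 10 members held no such letters, namely Ifnar1, Ifngr1, Stat2, Irf1, Irf3, Irf8, Irf9, Oasl, Mx1 and Psmb9. Oasl is shown as the member without a match that had the lowest p between the times, with the 250 bases before its start site and no capitals.
Oasl, chr12:47356293-47356542, minus strand: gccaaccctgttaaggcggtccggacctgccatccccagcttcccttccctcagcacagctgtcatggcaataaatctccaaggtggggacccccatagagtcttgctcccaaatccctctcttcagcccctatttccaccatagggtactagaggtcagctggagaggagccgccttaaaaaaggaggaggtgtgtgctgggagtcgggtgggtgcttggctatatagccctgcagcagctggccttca

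Tap1 and Psmb9 lie head to head, with start sites 457 bases apart on opposite strands and windows that share 44 bases. A match is a description of these letters and not of binding, and a window without one says only that the letters are not there. The members were not grouped by these letters in any test.

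The genes differed widely in how bright their probe sets were, and the members fell into bright, middle and undetected ones. Over the 12 arrays, B2m, the invariant chain of class I molecules, stayed between 13.01 and 13.77, and the membrane restriction factor Ifitm2 between 11.71 and 12.26. The 9 members under the filter were Irf8, Oas1a, Mx1, Ifit1, Ifit3, Isg15, Ifih1, Bst2 and Tap2. Isg15, the ubiquitin-like modifier of the interferon response, was at 2.49 to 2.55 and Ifit1, a binder of foreign RNA, at 1.83 to 1.88 in every array. Values of this size lie in the range where GCRMA compresses differences, and no call was made on them.

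OA minus sham at 2 weeks addressed the early response to the joint injury. No member passed the test in either direction (limma with Benjamini-Hochberg adjustment over all 15934 kept probe sets), and neither did any other gene, so that the share called was 0% higher and 0% lower. Of the 23 members 9 were higher and 14 lower, where 5060 of all 9244 genes were lower. The median log2 difference was -0.06 beside -0.01 over all genes. One member, Rsad2, had an unadjusted p under 0.05, which 1.5% of all genes had.

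Rsad2 encodes viperin, an enzyme that makes a chain-terminating nucleotide against viruses. Its log2 values in the OA arrays at 2 weeks were 8.67, 11.14 and 10.98, and in the sham arrays 8.29, 8.92 and 8.33. Replicates 2 and 3 of OA stood above every sham array, while replicate 1 of OA lay inside the sham range. The difference was 1.75 ± 0.62 (standard error, 3 arrays a group), or 3.36-fold (limma unadjusted p = 0.0188, adjusted p = 1). The neutrophil markers, 4 of them past the filter, had a mean level of 7.68, 9.63 and 9.33 in OA, against 5.59, 7.90 and 7.66 in sham. In OA both they and Rsad2 were lowest in replicate 1. In sham these markers were far lower in replicate 1 than in replicate 3, while Rsad2 was nearly the same in both. None of these 4 markers passed the test at 2 weeks, and their part in the Rsad2 values was not tested.

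Ifit2, an RNA-binding effector, was the member with the next smallest p at 2 weeks. It stood at 5.68, 5.41 and 5.82 in OA, against 6.99, 6.91 and 5.86 in sham. All 3 OA arrays lay below all 3 sham arrays, though only narrowly below the third, and the difference of -0.95 ± 0.75 did not pass (adjusted p = 1, limma). Such a separation to the lower side was seen in 1 of 23 members against 3.29% of all genes, and to the higher side in 0 members against 1.99%.

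The factors of the pathway differed little between OA and sham at 2 weeks. Irf3, which is activated by nucleic acid sensors, was at 11.98, 11.83 and 11.91 in OA and 12.00, 11.88 and 12.15 in sham, overlapping groups with a difference of -0.11 ± 0.09. Stat2, a transcription factor of the type I response, was at 9.60, 9.30 and 9.65 in OA and 9.64, 9.59 and 9.64 in sham, a difference of -0.11 ± 0.10 that rests on OA replicate 2. The immunoproteasome subunit Psmb8 differed by -0.04 ± 0.65, and Gbp2, a guanylate binding protein that acts on vacuoles of pathogens, by -0.09 ± 0.82. These intervals are wide: 2 standard errors of Gbp2 or Psmb8 span more than a doubling either way, so that a change of that size was not detectable with 3 arrays a group.

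**Figure D1:**
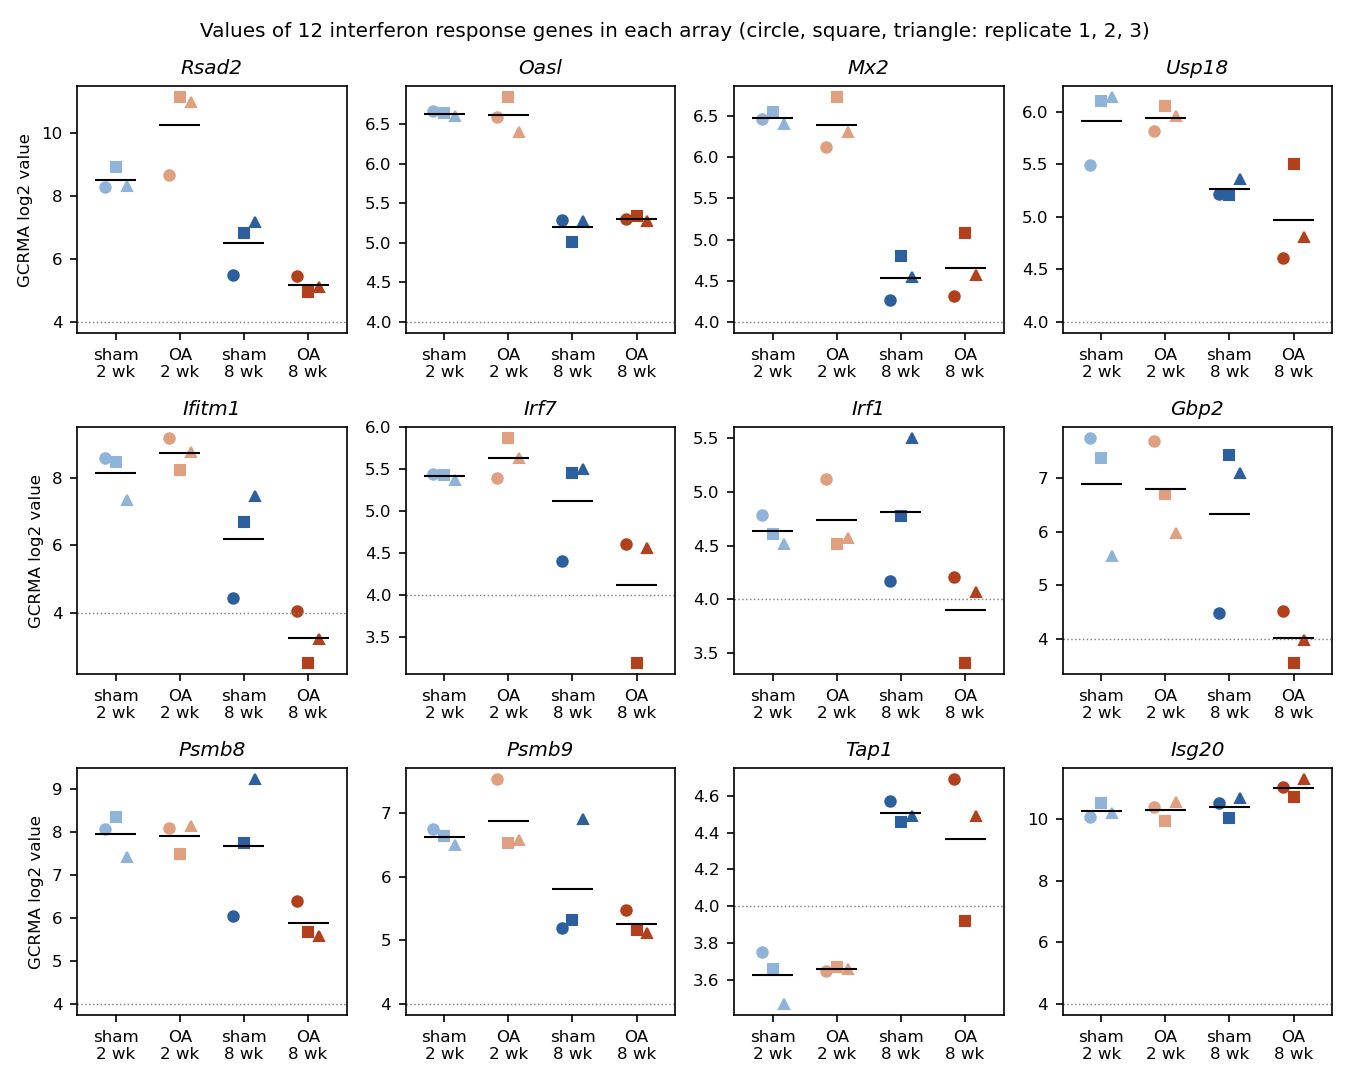
Values of 12 members in each array, on the GCRMA log2 scale on the vertical axis (the range differs between panels), by group on the horizontal axis. Points are arrays, lines are group means, and the dotted line is the filter at 4. Oasl and Mx2 lie lower in both 8-week groups, and the 8-week sham arrays of Ifitm1, Gbp2 and Psmb8 spread from the OA level upward.

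At 8 weeks most members were lower in OA than in sham, and none passed the test. Of 23 members 19 were lower and 4 higher, where 5123 of all 9244 genes were lower. The median log2 difference was -0.29 beside -0.03 over all genes. Some of the 19 differed by less than their standard error, such as Ifitm3 by -0.01 ± 0.76 and Ifitm2 by -0.07 ± 0.14. No member was called in either direction, where 2.46% of all genes were called lower and 1.03% higher. An unadjusted p under 0.05 was reached by 7 members, 6 of them lower, and by 22% of all genes. The 7 were the restriction factor Ifitm1, the receptor Ifngr1, the factors Irf1 and Irf7, Gbp2, Psmb8 and, in the higher direction, the exonuclease Isg20.

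Ifitm1, which hinders the entry of viruses into cells, had the lowest p among the members. In OA its values were 4.05, 2.52 and 3.21 and in sham 4.45, 6.68 and 7.47. The OA arrays all lay below the sham arrays, but sham replicate 1 stood much nearer to OA replicate 1 than to the other sham arrays. The difference was -2.94 ± 0.71, or 7.67-fold lower in OA (adjusted p = 0.0542, limma). As 2 of the 3 OA arrays lie under the filter level of 4, the size of this fold is inexact.

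The interferon gamma receptor chain Ifngr1 was at 10.22, 9.87 and 10.28 in OA and at 10.61, 10.88 and 11.09 in sham. All OA arrays were below all sham arrays, by -0.74 ± 0.24 or 1.67-fold (adjusted p = 0.123, limma). In a fit with a replicate block within each time, added after the data were seen, this difference passed the test, at -0.74 ± 0.15 and an adjusted p of 0.0474. Ifnar1, a chain of the type I receptor, differed by -0.15 ± 0.29 on its brightest probe set. The probe sets of Ifnar1 disagreed: another one, bright in all arrays, gave -0.78 ± 0.24 (adjusted p = 0.111, limma) and yet another 0.10 ± 0.17.

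Among the factors, Irf1 responds mainly to interferon gamma and Irf7 amplifies the type I response. The Irf1 values lay at 4.21, 3.41 and 4.07 in OA and 4.17, 4.78 and 5.50 in sham. Its groups overlapped through sham replicate 1, and the difference was -0.92 ± 0.32 (adjusted p = 0.146, limma). The Irf7 values lay at 4.61, 3.19 and 4.56 in OA and 4.40, 5.46 and 5.50 in sham. Here too sham replicate 1 lay within the OA range, with a difference of -1.0 ± 0.39 (adjusted p = 0.177, limma). Stat2 was at 9.83, 9.68 and 9.86 in OA and 9.93, 9.89 and 9.88 in sham, apart by only -0.11 ± 0.10. Irf3 differed by -0.03 ± 0.09 and Irf9 by -0.20 ± 0.37.

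The antiviral effectors went both ways at 8 weeks. Isg20, an exonuclease that degrades single-stranded RNA, was at 11.03, 10.71 and 11.29 in OA and at 10.51, 10.02 and 10.68 in sham. Every OA array exceeded every sham array, though by 0.61 ± 0.22 or 1.52-fold without passing the test (adjusted p = 0.161, limma). The Rsad2 values lay at 5.47, 4.96 and 5.12 in OA and 5.50, 6.81 and 7.18 in sham. The OA arrays lay below the sham arrays, narrowly so for sham replicate 1, by -1.32 ± 0.62 (adjusted p = 0.257, limma). Oasl, a sensor relative of the oligoadenylate synthetases, differed by 0.11 ± 0.12, and Mx2, a dynamin-like GTPase, by 0.12 ± 0.22. The kinase Eif2ak2, which halts translation on sensing double-stranded RNA, differed by 0.14 ± 0.14 and the deconjugase Usp18 by -0.29 ± 0.23. The ADP-ribosyltransferase Parp14 differed by -0.79 ± 0.67 and Ifit2 by -0.84 ± 0.75.

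Class I antigen processing and Gbp2 were lower in OA at 8 weeks without passing the test. Gbp2 was at 4.53, 3.56 and 3.98 in OA and at 4.48, 7.42 and 7.10 in sham. Sham replicate 1 had the OA level and the other sham arrays were far above it, with a difference of -2.31 ± 0.82 or 4.96-fold (adjusted p = 0.148, limma). As the OA values of 3.56 and 3.98 lie under the filter level of 4, the size of this fold is inexact. Psmb8 was at 6.40, 5.67 and 5.58 in OA and at 6.04, 7.74 and 9.23 in sham, a difference of -1.79 ± 0.65 or 3.45-fold (adjusted p = 0.154, limma). Its partner subunit Psmb9 was at 5.48, 5.16 and 5.11 in OA and at 5.19, 5.32 and 6.91 in sham. In Psmb9 sham replicate 3 alone stood high, and the difference of -0.56 ± 0.42 rests on that array. The peptide transporter subunit Tap1 differed by -0.14 ± 0.17. B2m was at 13.06, 13.27 and 13.28 in OA and at 13.01, 13.74 and 13.77 in sham, a difference of -0.31 ± 0.19 (adjusted p = 0.393, limma).

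**Figure D2:**
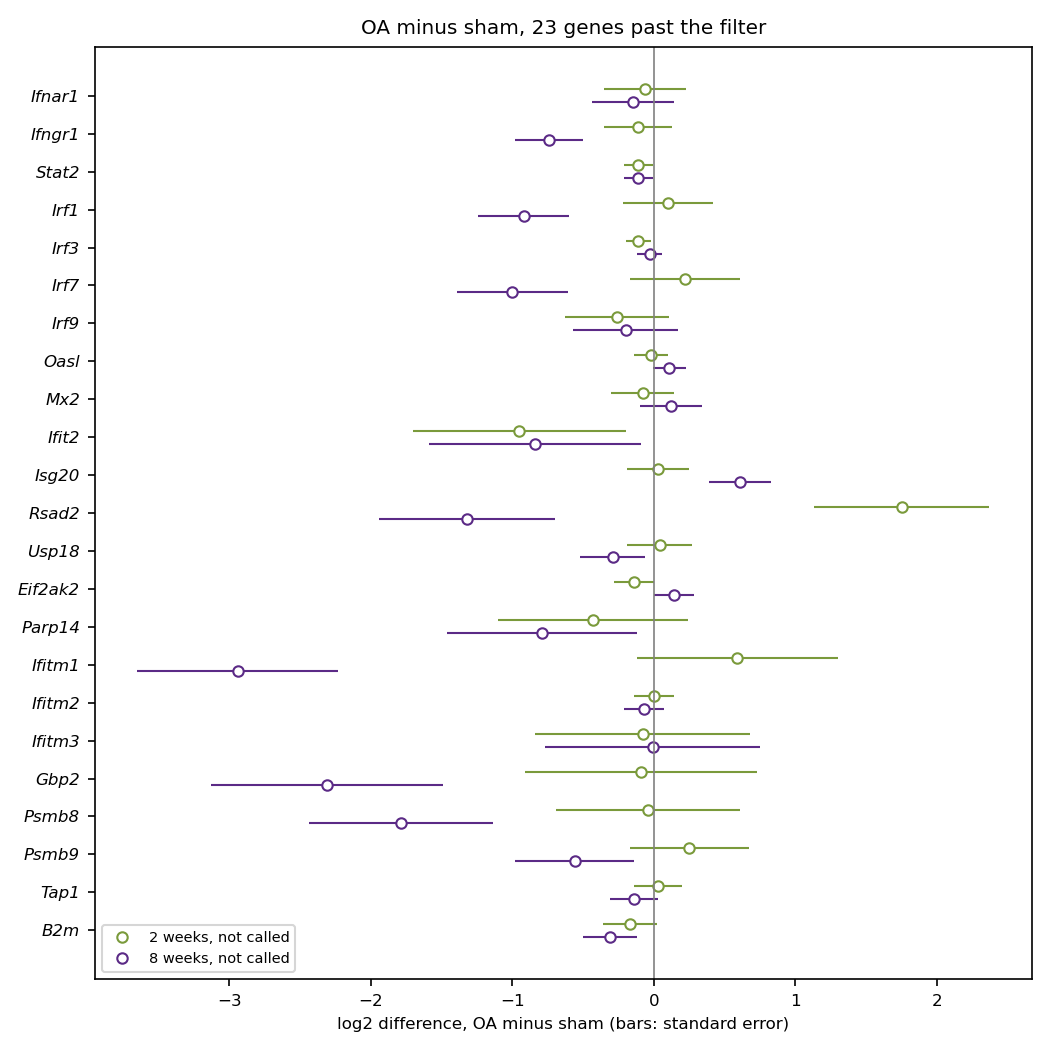
The log2 difference of OA minus sham for the 23 members past the filter, at 2 weeks (green) and 8 weeks (purple), with standard errors as bars. All circles are open because no member passed the test at either time; Rsad2 stands highest at 2 weeks, at 1.75, and Ifitm1 lowest at 8 weeks, at -2.94.

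The arrays of 4 members did not overlap at 8 weeks in the lower direction (Ifitm1, Ifngr1, Rsad2 and Stat2), where 15.8% of all genes separated that way. In the higher direction this held for Isg20 alone of the 23, against 9.73% of all genes. Neither count exceeds the share of all genes by as much as 1 member.

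Replicate 1 of sham at 8 weeks stood apart from the other sham arrays in these genes. It was the lowest of the 3 sham arrays in 17 of the 23 members (73.9%), against 3079 of 9244 genes (33.3%). It was nearer to the OA mean than to the mean of the other sham arrays in 17 members (73.9%), against 49.8% of all genes. The median of its difference from the other sham arrays was -0.93 over the members and 0.02 over all genes. Ifitm3, a restriction factor of endosomes, was furthest below, at 10.31 in replicate 1 against 13.17 and 13.01 in the others. Gbp2 was lower there by 2.78, Ifitm1 by 2.63, Ifit2 by 2.53, Psmb8 by 2.45 and Parp14 by 2.30 on the log2 scale. The median SD of the members was 0.62 in this sham group, and 0.29 in OA at 8 weeks, 0.24 in OA at 2 weeks and 0.21 in sham at 2 weeks. Over all genes it was 0.15, 0.18, 0.18 and 0.15 in the same order. The model shares 1 spread over the 4 groups, so the standard errors of the 8-week differences tend to be too small for genes with such a spread. Sham replicate 3 of 2 weeks was low in some of these genes too. Gbp2 was at 5.54 there against 7.74 and 7.37 in the other sham arrays, and Ifitm3 at 11.35 against 12.69 and 12.70.

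Without sham replicate 1 of 8 weeks, 5 of the 23 members were called lower in OA, where 4.51% of all genes were. Ifitm1 then differed by -3.82 ± 0.52 or 14.1-fold (adjusted p = 0.00688, limma). Psmb8 differed by -2.60 ± 0.46 (adjusted p = 0.0179) and Gbp2 by -3.24 ± 0.67 (adjusted p = 0.0291), both by limma. B2m differed by -0.55 ± 0.13 (adjusted p = 0.0423, limma) and Irf1 by -1.24 ± 0.30 (adjusted p = 0.0427, limma). This array was left out after its values were seen, so these calls rest on a choice made on the same outcome and are values under that choice only. No label gives a reason to leave it out. The median difference of the members was -0.71 without it.

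Leaving out certain other arrays shrank the differences. Without sham replicate 3 of 8 weeks, Psmb8 differed by -1.01 ± 0.50 (adjusted p = 0.393, limma), Irf1 by -0.58 ± 0.28 (adjusted p = 0.393, limma) and Ifitm1 by -2.31 ± 0.69 or 4.94-fold (adjusted p = 0.185, limma). Psmb9 then differed by -0.01 ± 0.28 and B2m by -0.17 ± 0.21. B2m differed by -0.19 ± 0.21 without sham replicate 2, and Irf7 by -0.53 ± 0.30 without OA replicate 2 (adjusted p = 0.38, limma). No member was called without any 1 of the 8-week arrays other than sham replicate 1.

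**Figure D3:**
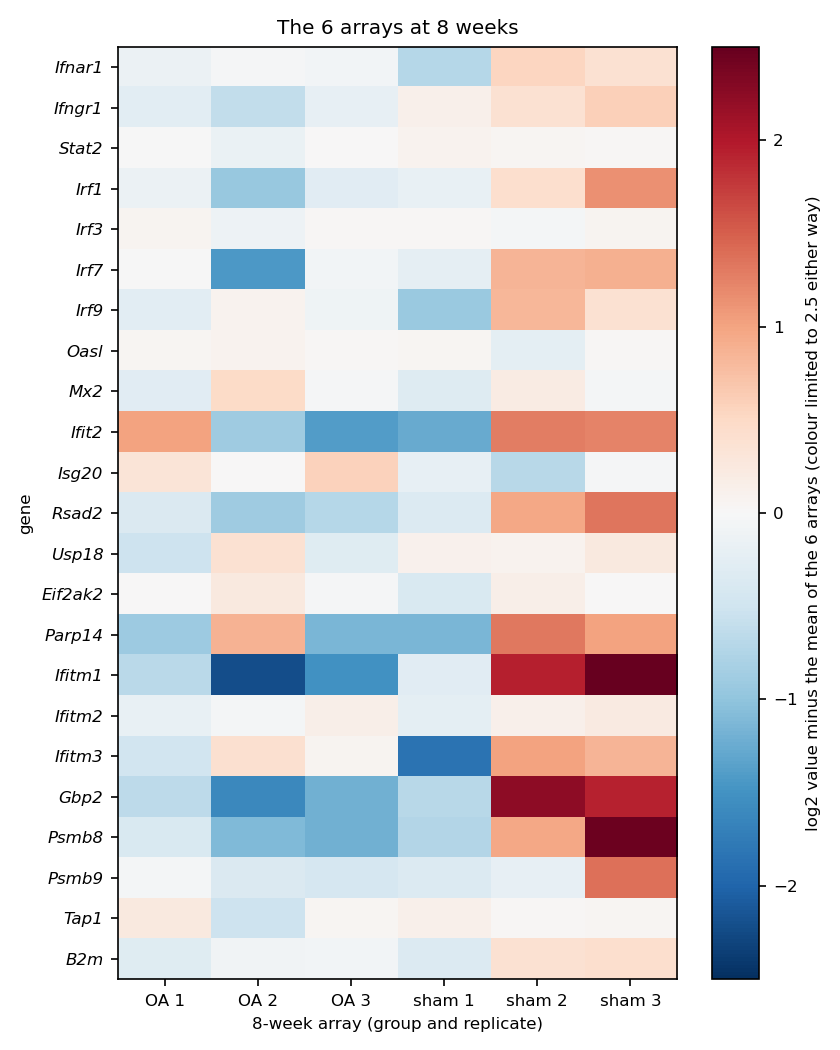
Each cell is a member's log2 value in 1 of the 6 arrays at 8 weeks, minus the mean of the 6, from blue (lower) to red (higher), with genes on the vertical axis and arrays on the horizontal axis. The red cells of Gbp2, Ifitm1 and Psmb8 are in sham arrays 2 and 3, while sham array 1 resembles the OA arrays in these rows.

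Markers of some other cell types moved with the same arrays. The macrophage list had 18 of its 24 genes past the filter, and all 18 were lower in OA at 8 weeks, 4 of them called, with a median of -2.41. Its mean level at 8 weeks was 5.88, 6.13 and 6.05 in OA, against 6.82, 9.10 and 9.67 in sham. Sham replicate 1 was therefore low in macrophage markers as well as in the members, whose mean level was 7.56, 7.36 and 7.39 in OA and 7.31, 8.28 and 8.49 in sham. Cd68, a macrophage lysosome marker, was at 2.26, 2.39 and 2.98 in OA and at 7.86, 9.21 and 9.95 in sham. Csf1r, the macrophage growth factor receptor, had a mean of 6.62 in OA and 8.55 in sham. A joint low level was not limited to that array. At 2 weeks sham replicate 3 had a member level of 8.17 against 8.57 and 8.60 in the other sham arrays. Its macrophage markers were at 8.00 against 9.56 and 9.77. Replicate 3 was the lowest OA array of 2 weeks as well, at 8.39 in the members and 8.40 in the macrophage markers.

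Skeletal muscle markers ran the other way at 8 weeks, with 16 of 17 genes past the filter higher in OA, none called, and a median of 4.37. Their mean level ranged from 10.03 to 14.55 in the OA arrays and from 5.94 to 10.71 in the sham arrays, where replicate 1 was the highest. All 7 endothelial markers past the filter were lower in OA, none called, with a mean level of 5.23 in sham replicate 1 against 6.60 and 5.82 in the others. Osteoclast markers were called lower in 5 of 6 genes, and there sham replicate 1, at 12.49, lay with the other sham arrays at 12.52 and 12.79, above 9.98 to 11.11 in OA. The neutrophil markers at 8 weeks did not follow the member pattern either, at 5.94, 5.34 and 7.50 in sham and 7.15, 4.22 and 4.90 in OA.

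Lymphoid markers were mostly under the filter. Of the T, B and NK cell markers 2 of 16 passed it, Cd3e and Ms4a1, with a mean level of 2.94, 3.27 and 3.06 in OA and 3.08, 4.48 and 4.31 in sham at 8 weeks. The T cell marker Cd3e differed by 0.04 and the B cell marker Ms4a1 by -1.78, neither called. Ms4a1 exceeded the filter level only in sham arrays and lay near the floor in OA. It therefore passed the filter only through sham, and its direction was set by the filter. Cd3e was level over the sham arrays, at 4.51, 4.46 and 4.46. Of the markers of plasmacytoid dendritic cells, which are known as a source of type I interferon, Tcf4 and the RNA sensor Tlr7 passed the filter out of 9. Their mean level at 8 weeks was 8.71, 8.83 and 8.75 in OA against 8.22, 9.83 and 9.96 in sham, and neither was called. Tcf4 was far brighter than Tlr7 in all of these arrays, so the mean of the 2 genes is no measure of such cells. The 2 genes went opposite ways: Tlr7 differed by -1.38, and Tcf4 by 0.23 with all its OA arrays above all its sham arrays. The low mean of sham replicate 1 came mainly from Tlr7, at 2.76 there against 5.85 and 6.07 in the other sham arrays. Whether these other cells account for the member values was not tested.

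**Figure D4:**
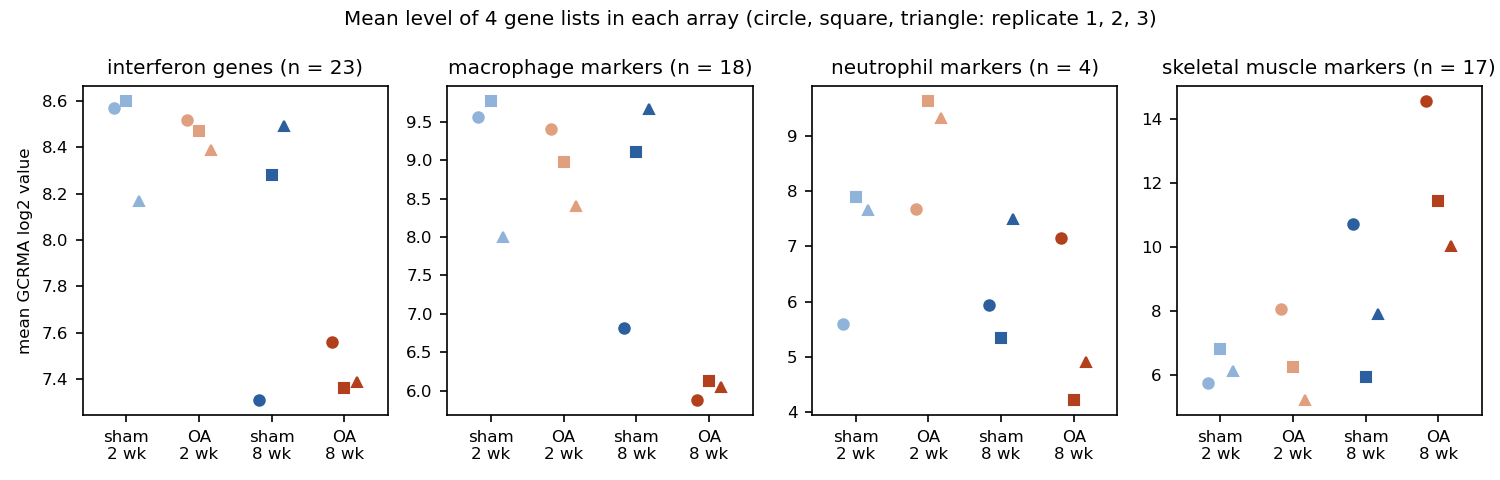
Mean GCRMA log2 level of the 23 members and of the macrophage, neutrophil and skeletal muscle markers in each array (vertical axis) by group (horizontal axis), with symbols for replicates 1 to 3. At 8 weeks sham replicate 1 is low in the members, at 7.31, and in the macrophage markers, at 6.82, and high in the muscle markers, at 10.71.

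The change of the OA difference from 2 to 8 weeks tests whether OA acted differently at the 2 times. No member was called, where 0.0649% of all genes were called higher and 0.0974% lower. Of 23 members 15 had a lower OA difference at 8 weeks, as had 5017 of all 9244 genes. The median change was -0.13 beside -0.03 over all genes. An unadjusted p under 0.05 was reached by 2 members and by 10.9% of all genes. Ifitm1 changed by -3.53 ± 1.0 (unadjusted p = 0.00561, adjusted p = 0.254, limma). Rsad2 changed by -3.07 ± 0.88 (unadjusted p = 0.00605, adjusted p = 0.259, limma), from a positive difference at 2 weeks to a negative one at 8 weeks. Without sham replicate 1 of 8 weeks Ifitm1 passed the test, at -4.41 ± 0.70 and an adjusted p of 0.0369.

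The 8-week and 2-week groups were also compared within sham and within OA, and these comparisons held the called members. Time after surgery, the age of the animals and any difference in when the arrays were made cannot be told apart here. All 6 arrays of 8 weeks lay above all 6 of 2 weeks in 14.0% of the kept probe sets and below them in 6.64%. Among probe sets under the filter the shares were 15.4% and 12.1%, so that values near the floor also separated by time. These comparisons share no array with each other, but each shares arrays with an OA comparison.

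Within sham, 1 of 23 members was higher at 8 weeks and 3 were lower, where 9.44% of all genes were called higher and 5.39% lower. The median difference was -0.28 over the members and 0.08 over all genes, but it turned to 0.19 without sham replicate 1 of 8 weeks, and was -0.46 without sham replicate 2 or 3 of that time. The 3 lower members, Oasl, Mx2 and Rsad2, are antiviral effectors, and the higher one was Tap1. Tap1 passed the filter only through 8-week arrays, so its direction was fixed in advance, within OA as well. Apart from it, no member was called higher within sham. Within OA, 2 members were higher and 9 lower, where 16.5% of all genes were called higher and 12.9% lower. Here the median was -0.30 beside 0.04. The 9 lower members were 4 antiviral effectors (Oasl, Mx2, Rsad2 and Usp18), Ifitm1, Irf7, Gbp2 and both immunoproteasome subunits, and the higher members were Tap1 and Isg20.

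Oasl and Mx2 fell in both groups. Oasl was at 6.59, 6.84 and 6.40 in OA and 6.66, 6.64 and 6.60 in sham at 2 weeks, and at 5.30, 5.34 and 5.27 in OA and 5.29, 5.01 and 5.28 in sham at 8 weeks. The 2-week and 8-week arrays were far apart, and OA and sham lay together at each time. The difference was -1.44 ± 0.12 in sham, or 2.72-fold (adjusted p = 8e-06, limma). In OA it was -1.31 ± 0.12, or 2.48-fold (adjusted p = 1.42e-05, limma).

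Mx2 was at 6.13, 6.73 and 6.31 in OA and 6.47, 6.55 and 6.40 in sham at 2 weeks. At 8 weeks it was at 4.31, 5.08 and 4.57 in OA and 4.27, 4.80 and 4.54 in sham. It fell by 1.94 ± 0.22 in sham (3.83-fold, adjusted p = 7.9e-05, limma) and by 1.74 ± 0.22 in OA (3.33-fold, adjusted p = 0.000148, limma). The change of the OA difference was 0.20 ± 0.31 for Mx2 and 0.13 ± 0.17 for Oasl, and neither passed the test. A second Mx2 probe set lay under the filter at 2.73 to 2.91 in all arrays.

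Rsad2 was bright at 2 weeks and low at 8 weeks in both groups, with the values given above. It fell by 5.08 ± 0.62 in OA, or 33.9-fold (adjusted p = 0.000132, limma). In sham it fell by 2.02 ± 0.62, or 4.04-fold, just past the threshold (adjusted p = 0.0492, limma). The sham call was lost when any of 9 single arrays was left out, which is all but OA replicates 1 and 2 of 2 weeks and sham replicate 3 of 8 weeks. Without sham replicate 1 of 8 weeks it was -1.52 ± 0.63 (adjusted p = 0.176, limma), the highest adjusted p of these. The neutrophil markers also fell within OA, all 4 of them called, with a median of -3.91, and their part in the fall of Rsad2 was not tested.

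Ifitm1 was at 9.17, 8.24 and 8.75 in OA and 8.58, 8.47 and 7.34 in sham at 2 weeks. Against the 8-week values above it fell by 5.46 ± 0.71 in OA, or 44.0-fold (adjusted p = 0.000197, limma), to a level near the floor that makes the fold inexact. In sham the difference was -1.93 ± 0.71 (adjusted p = 0.0981, limma). The other IFITM genes were not called over time: Ifitm2 differed by -0.07 ± 0.14 in sham and -0.14 ± 0.14 in OA, and Ifitm3 by -0.08 ± 0.76 and -0.01 ± 0.76. The errors of Ifitm3 do not show it to be level, and in sham its mean at 8 weeks without replicate 1 was 13.09, against 12.25 at 2 weeks. That 2-week mean keeps a low replicate 3, at 11.35 against 12.69 and 12.70, so these 2 means are not alike. Ifitm3 varied within groups far more than Ifitm2, from 10.31 to 13.17 against 11.71 to 12.26.

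Usp18, which removes ISG15 and damps the type I receptor, was at 5.82, 6.06 and 5.96 in OA at 2 weeks and at 4.61, 5.50 and 4.81 at 8 weeks. All 8-week OA arrays lay below the 2-week ones, by 0.97 ± 0.23 on the log2 scale (adjusted p = 0.00897, limma). In sham it went from 5.49, 6.10 and 6.14 to 5.22, 5.21 and 5.36, a difference of -0.65 ± 0.23 that did not pass (adjusted p = 0.0906, limma). Irf7 was at 5.40, 5.87 and 5.63 in OA and 5.44, 5.43 and 5.37 in sham at 2 weeks. It fell by 1.52 ± 0.39 in OA (adjusted p = 0.0129, limma), where OA replicate 2 of 8 weeks was lowest, and differed by -0.29 ± 0.39 in sham.

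The immunoproteasome subunits and Gbp2 fell within OA. Psmb9 was at 7.54, 6.53 and 6.58 in OA and 6.75, 6.64 and 6.50 in sham at 2 weeks, and fell by 1.63 ± 0.42 in OA (adjusted p = 0.0134, limma). Psmb8 was at 8.10, 7.48 and 8.15 in OA and 8.06, 8.36 and 7.43 in sham at 2 weeks, and fell by 2.03 ± 0.65 in OA (adjusted p = 0.0351, limma). Gbp2 was at 7.69, 6.71 and 5.98 in OA and 7.74, 7.37 and 5.54 in sham at 2 weeks, and fell by 2.77 ± 0.82 in OA (6.82-fold, adjusted p = 0.0249, limma). Its 8-week level in OA was near the floor, which makes the fold inexact. In sham the differences of these 3 genes were -0.82 ± 0.42, -0.28 ± 0.65 and -0.55 ± 0.82 in the same order, none called.

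That a member was called over time in OA and not in sham does not show that the groups differed, since the test of that difference is the change of the OA difference above, which called none. Macrophage markers fell within OA too, 13 of 18 called lower with a median of -2.90, against 1 of 18 and -0.28 within sham, and their part in the member values was not tested.

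The calls of Psmb8, Gbp2, Psmb9 and Isg20 within OA were less firm than the others. That of Psmb8 was lost without any of the OA arrays of 2 weeks or OA replicate 2 or 3 of 8 weeks (adjusted p from 0.0544 to 0.0938). A block for the replicate number also ended it, at an adjusted p of 0.0545. That of Gbp2 was lost without OA replicate 1 or 2 of 2 weeks or OA replicate 2 or 3 of 8 weeks (adjusted p up to 0.0867). That of Isg20 was lost without OA replicate 1 or 2 of 2 weeks or OA replicate 1 or 3 of 8 weeks (adjusted p up to 0.114). Without OA replicate 1 of 2 weeks, 7 of the 11 calls were made, those of Ifitm1, Irf7, Mx2, Oasl, Rsad2, Tap1 and Usp18, and Psmb9 was at an adjusted p of 0.0505. With the mean level of the muscle markers as a covariate 4 calls were made, those of Ifitm1, Mx2, Oasl and Rsad2. Within OA that level ran from 5.21 to 8.05 at 2 weeks and from 10.03 to 14.55 at 8 weeks. The covariate thus went largely with time, which widens the errors, and the lost calls do not show a part of muscle. Psmb8 was then at -1.53 ± 1.1, and Psmb9 at -1.95 ± 0.71, a larger difference than without the covariate. All adjusted p-values here are limma's.

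Tap1 and Isg20 were higher at 8 weeks, against the direction of the other called members. Tap1 was at 3.65, 3.67 and 3.66 in OA and 3.75, 3.66 and 3.47 in sham at 2 weeks, and at 4.69, 3.92 and 4.49 in OA and 4.57, 4.46 and 4.49 in sham at 8 weeks. It was higher by 0.88 ± 0.17 in sham (adjusted p = 0.00353, limma) and by 0.70 ± 0.17 in OA (adjusted p = 0.00893, limma). Its values exceeded 4 in 5 arrays, all at 8 weeks, so Tap1 passed the filter only through the group in which it was high and had to differ in that direction. A second Tap1 probe set lay at 2.18 to 2.26 in all arrays.

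Isg20 was at 10.38, 9.95 and 10.55 in OA and 10.08, 10.51 and 10.19 in sham at 2 weeks. It rose by 0.72 ± 0.22 within OA (1.65-fold, adjusted p = 0.0318, limma), where all 8-week arrays exceeded all 2-week ones, and differed by 0.14 ± 0.22 within sham.

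**Figure D5:**
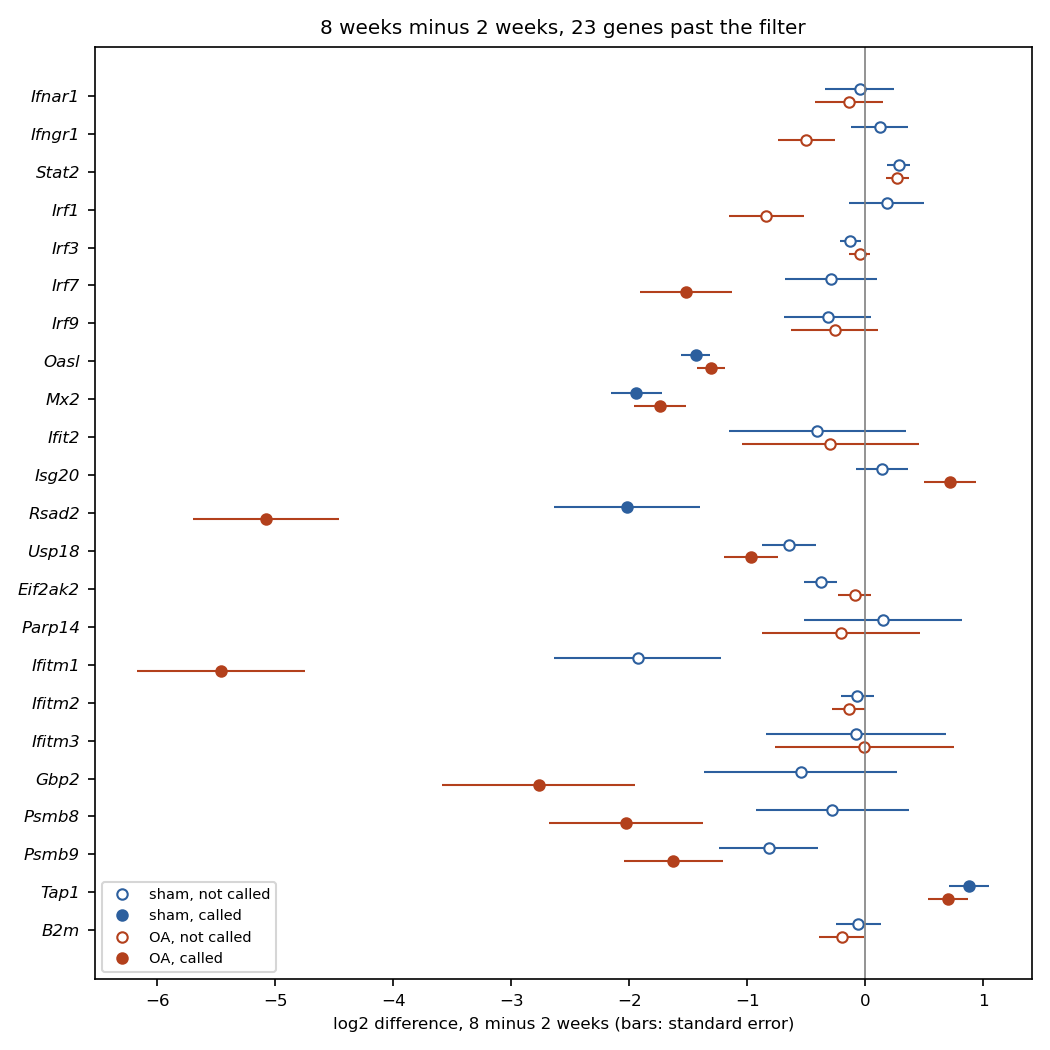
The log2 difference of 8 minus 2 weeks for the 23 members past the filter, within sham (blue) and within OA (red), with standard errors as bars. Filled circles passed the test, 4 within sham and 11 within OA, and Oasl, Mx2 and Rsad2 lie left of 0 in both. The filled circles include Tap1, which passed the filter only through 8-week arrays.

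The members that were not called over time included the receptors, most factors and the class I chain. Ifngr1 was at 10.96, 10.50 and 10.42 in OA and 11.15, 10.82 and 10.24 in sham at 2 weeks, and differed by -0.50 ± 0.24 within OA and 0.12 ± 0.24 within sham. A further Ifnar1 probe set was lower by 0.82 ± 0.24 at 8 weeks within OA (adjusted p = 0.0262, limma), while the brightest one differed by -0.14 ± 0.29. Yet another went the other way, by 0.35 ± 0.17 within OA and 0.41 ± 0.17 within sham, not called. Stat2 was higher in all 8-week arrays than in all 2-week arrays, by 0.28 ± 0.10 in sham (adjusted p = 0.0926, limma) and 0.27 ± 0.10 in OA (adjusted p = 0.0612, limma). Irf1 was at 5.12, 4.52 and 4.57 in OA and 4.79, 4.61 and 4.52 in sham at 2 weeks, with a difference of -0.84 ± 0.32 within OA (adjusted p = 0.0717, limma). B2m, at 13.42, 13.49 and 13.29 in OA and 13.61, 13.74 and 13.36 in sham at 2 weeks, differed by -0.20 ± 0.19 within OA and -0.06 ± 0.19 within sham.

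Eif2ak2 differed by -0.38 ± 0.14 within sham (adjusted p = 0.105, limma) and -0.09 ± 0.14 within OA. Parp14 and Ifit2 differed over time by less than their standard errors within sham and within OA. For Irf3 and Irf9 the differences over time were at most 0.32 in size. The brightest Irf9 probe set differed by -0.32 ± 0.37 within sham and -0.26 ± 0.37 within OA, and another by 0.22 ± 0.15 and 0.14 ± 0.15. Among the members under the filter, Ifih1, a sensor of long double-stranded RNA, was at 3.95 to 4.30 in the 2-week arrays and at 2.99 to 3.11 in the 8-week arrays, the largest separation by time among those 9. Levels of this size carry no call.

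Further genes of the pathway gave few OA calls. Of 71 such genes with a probe set, 49 passed the filter, none of them called at 2 weeks and none in the change of the OA difference by limma (1 and 5 of them at an unadjusted p under 0.05, as were 1.5% and 10.9% of all genes). At 8 weeks 34 of the 49 were lower in OA, with a median of -0.18, where 5123 of all 9244 genes were lower. Of the 49, 2 were called lower and none higher, where 2.46% of all genes were called lower and 1.03% higher. Fcgrt, the neonatal Fc receptor that pairs with B2m, was at 12.45, 12.21 and 12.28 in OA and at 12.96, 12.95 and 12.84 in sham. Its arrays did not overlap, and sham replicate 1 lay with the other sham arrays, with a difference of -0.61 ± 0.11 or 1.52-fold (adjusted p = 0.0184, limma). Sp110, a nuclear body protein induced by interferon, was at 9.31, 9.66 and 9.29 in OA and at 9.91, 10.38 and 10.44 in sham, a difference of -0.83 ± 0.19 (adjusted p = 0.0459, limma). The call of Fcgrt was lost without any of 3 single 8-week arrays (OA replicate 2, sham replicate 2 or 3; adjusted p up to 0.0693), and that of Sp110 without any of 9, which is all but OA replicates 1 and 3 of 2 weeks and sham replicate 1 of 8 weeks (adjusted p up to 0.169). In a fit with a replicate block Sp110 was at an adjusted p of 0.0544 (limma). Both calls were also lost with the muscle marker covariate, at an adjusted p of 0.112 for Fcgrt and 0.328 for Sp110 (limma). The differences were then -0.69 ± 0.15 and -0.75 ± 0.26, with wider errors. Both calls were lost too with only the 6 arrays compared, at an adjusted p of 0.0928 and 0.141 (limma). Without a filter Sp110 was at an adjusted p of 0.0838 (limma).

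Over time, 6 of these 49 genes were called higher and 3 lower within sham, where 9.44% and 5.39% of all genes were. Within OA 10 were called higher and 9 lower, where 16.5% and 12.9% of all genes were. Adar, which edits adenosines in double-stranded RNA, was higher at 8 weeks by 1.52 ± 0.07 in sham and 1.57 ± 0.07 in OA. The nonclassical class I gene RT1-M3-1 was higher by 2.73 ± 0.14 in sham and 2.87 ± 0.14 in OA. Ifi35 was higher by 1.32 ± 0.14 and 1.44 ± 0.14, and Pml, the scaffold of nuclear bodies, by 0.69 ± 0.11 and 0.65 ± 0.11. Psmb10, the other inducible immunoproteasome subunit, was lower by 0.97 ± 0.15 in sham (adjusted p = 0.00105, limma) and by 1.33 ± 0.15 in OA (adjusted p = 8.43e-05, limma). Sp100, another nuclear body protein, was lower by 1.13 ± 0.26 in sham and 1.69 ± 0.26 in OA. Gbp7 was lower by 1.55 ± 0.34 in sham, but exceeded 4 in only 4 arrays, all at 2 weeks, and so passed the filter only through the time at which it was high. Tapbp, also among the 49, exceeded 4 in 6 arrays, all at 8 weeks, so its direction over time was set by the filter too. Within OA Dtx3l, a ubiquitin ligase, was lower by 2.63 ± 0.47.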

How the data were processed

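The deposited values are log2 expression values of 31099 probe sets in 12 arrays; per the submitters' processing notes the authors used GCRMA (version not stated), which corrects background and normalizes between arrays. No further normalization was applied, and array number limits the precision of every value. The array annotation gave 20832 probe sets 1 symbol, 436 several and 9831 none; 20764 Entrez IDs were found in the RefSeq gene table of GRCr8, and 0 symbols changed. Control probe sets (57) and those not above log2 4 in at least 3 arrays were left out, which kept 15934. Per gene the single-symbol probe set with the highest mean was used.

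With limma 3.58.1 (R 4.3.3), lmFit fitted 1 mean per group over 12 arrays, with empirical Bayes variances (8 residual, 1.94 prior degrees of freedom) and Benjamini-Hochberg adjustment over all kept probe sets; calls had an adjusted p under 0.05. The fit was tested on simulated data. Tables and figures used matplotlib 3.10.9, numpy 2.4.6 and pandas 2.3.3 in Python 3.11.15. The members and lists were chosen with earlier results of these data known.

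Same-numbered OA and sham arrays, numbered in the titles, deviated together at each time: correlations over kept probe sets were 0.333, 0.36 and 0.527 at 2 weeks and 0.239, 0.237 and 0.119 at 8 weeks. The blocked value is printed where it changes a call. All members are named. Values in every array are given for members called in any comparison and for the 4 with the smallest p in each OA comparison, and other members by mean, range or difference. Of the further genes, those called were named, up to 4 a direction. Alternatives were another normalization, filter, variance model, array weights, a muscle marker covariate, the replicate block, only the arrays compared, and leaving out each array.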

Additional observations from a re-analysis of the deposited data

How the results depend on the processing

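The number of members called is given here, beside the main one, where it changed by over 1.5 times. For OA minus sham at 8 weeks (0 called), 1 was called with added quantile normalization, with the filter at log2 6 and with a robust variance trend, each time Ifitm1. Array weights called 5 (Gbp2, Ifitm1, Irf1, Irf7 and Psmb8). Chosen after seeing the data, leaving out both 8-week replicate 1 arrays called 5 (Gbp2, Ifit2, Ifitm1, Irf1 and Psmb8), and the replicate block within each time called 1 (Ifngr1). A replicate block over both times called 0 members at 8 weeks. For the change of the OA difference (0 called), leaving out both replicate 1 arrays called 1 (Ifitm1). Within sham (4 called) the filter at log2 6 gave 2 and no filter 9; within OA (11 called) a muscle marker covariate gave 4 and no filter 17. The rises in the unfiltered counts include members near the floor, such as Ifih1 and Oas1a.

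Leaving out each array in turn, the counts ranged from 0 to 0 for OA minus sham at 2 weeks, from 0 to 5 at 8 weeks, from 0 to 1 for the change of the OA difference, from 3 to 6 within sham and from 7 to 12 within OA. The member medians ranged from -0.1 to 0.01, from -0.71 to -0.15, from -0.48 to -0.01, from -0.46 to 0.19 and from -0.55 to -0.25 in the same order. Refits of single genes were tallied only for members with an unadjusted p under 0.05, the 4 with the smallest p in each OA comparison, and the further genes named as called. Of these refits, 1026 kept the direction and the side of the threshold, 61 lost a call, 38 gained one and 1 turned its sign. The last was Stat2 at 2 weeks, which ranged from -0.17 to 0 and reached 0 without OA replicate 2 of that time. Members outside this choice also turned sign at 8 weeks. With the muscle marker covariate Ifnar1 went from -0.15 to 0.33 and Irf9 from -0.20 to 0.44. Over the settings, the adjusted p of Ifitm1 at 8 weeks ranged from 0.00521 to 0.369, and that of Oasl within sham from 1.16e-06 to 0.000319. The common block also made a call of Usp18 within sham (adjusted p = 0.0436) and of Stat2 within OA (adjusted p = 0.0399), both by limma. Comparing only the 6 arrays of a comparison could not be applied to the change of the OA difference, and the block within each time was run for the OA comparisons and their change. Signal near background limits what can be said of the 9 members under the filter and of fold sizes below log2 4.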
